A study of Mus musculus with 6 samples.

Results

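Elongation factors keep RNA polymerase II moving along a gene after it has left the promoter. The genes described here are 10 such factors: Ell and Ell2 (ELL family), Aff1 and Aff4 (the AF4/FMR2 scaffolds), Paf1, Cdc73, Ctr9 and Leo1 (subunits of the PAF1 complex), Supt6 (the histone chaperone SPT6) and Tcea1 (the cleavage factor TFIIS). They were chosen by name, as every transcript of these genes by GENCODE mouse symbols on the mm10 build, and no measured value entered the choice. GENCODE lists 56 transcripts of the 10 genes, and 54 of them were among the 68473 transcripts with a value. The ones not analysed here were 1 of Ctr9 and ENSMUST00000001583, the coding model that holds the outermost start of Ell2. Of the 54, 19 were protein-coding models, 29 retained-intron models, 4 processed transcripts and 2 models marked for nonsense-mediated decay.

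The study asked how transcription differs in C57BL/6 mouse embryonic stem cells with and without Mettl3, the enzyme that writes the m6A mark on RNA. There were 3 groups of 2 libraries, Mettl3 control, Mettl3 KO1 and Mettl3 KO2, grown in medium with serum, LIF, the GSK3 inhibitor CHIR99021 and the MEK inhibitor PD0325901. The labels say neither how the knockouts were made, nor whether each is 1 clone. Nor do they say if the 2 libraries of a group came from different cultures, and the p-values below then cover only the spread between libraries, which may be technical. In mNET-seq, chromatin is cut with micrococcal nuclease, RNA polymerase II is pulled down with an antibody, and the short RNA it holds is sequenced. All 9 of the pluripotency genes looked up, among them Pou5f1 and Nanog, had values, as did 4 of 8 genes of feeder fibroblasts, but the index is not a level, so this does not check the cell type.

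The deposited value is a log2 "escaping index" for each transcript, which is a ratio within the transcript and not the amount of an RNA. Over the 54 transcripts it followed the log10 of the length from start to end (Pearson's r = 0.904, Spearman's rho = 0.871), as it did over all 68397 matched transcripts (r = 0.804, rho = 0.812). These are descriptions across transcripts that share libraries and, within a gene, reads. A longer model thus has a higher index, and genes are not ranked by it here. Read depth is unknown, so no interval from counts is given. Across transcripts, the 2 libraries of a group correlated at Pearson's r from 0.978 to 0.979.

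The super elongation complex joins the AFF scaffolds, the ELL factors and the kinase P-TEFb, and releases paused polymerase. The PAF1 complex travels with the polymerase and is needed for ubiquitination of histone H2B over genes, SPT6 rebuilds nucleosomes behind the polymerase, and TFIIS rescues polymerase that has slid backwards. In embryonic stem cells the super elongation complex is known for the rapid induction of genes, and the PAF1 complex for keeping the cells undifferentiated.

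Index values were taken over 2 kinds of start. An outer start lies within 500 bases of the gene's outermost annotated 5′ end, and any other start is internal. The members had 18 outer-start and 36 internal-start transcripts. An outer-start value existed for 9 of the 10 genes (all but Ell2) among 15956 genes in all, and an internal-start value for 8 (all but Ell and Tcea1) among 8708. Over all genes' outer starts, each control library had a median index of 3.59, the KO1 libraries had 3.28 and 3.29, and the KO2 libraries 3.11 and 3.13. The members are read against that shift, and a difference is called where the Benjamini-Hochberg adjusted p over all genes or transcripts, from limma, was under 0.05.

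At outer starts no member was called in the main fit. In KO2, 0 of the 9 genes passed against 17.7% of all genes, and in the average of both knockouts 0 of 9 passed against 14.8%. In KO1 the same test called 0 members and 0% of all genes, although 4408 genes (27.6%) had an unadjusted p under 0.05, none of them a member. With protein-coding models alone, 973 of 11701 genes (8.32%) were called in KO1, again no member. That setting called 2 of 8 members in KO2 (Cdc73 and Tcea1), against 30.8% of all genes. In the average it called 1 (Cdc73), against 27.8%. In the main fit, 2 of 9 members had an unadjusted p under 0.05 in KO2, against 38.9% of all genes. In the average there were 3 of 9, against 37.5%. The median difference of the 9 genes was -0.09 in KO1 and -0.27 in KO2, where all genes had medians of -0.30 and -0.48. The members thus sat a little higher than the middle gene in both knockouts, a description with no test of its own.

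Counted by library, both KO1 libraries lay below both controls for 4 of the 9 genes, against 48.2% of all genes, and both KO2 libraries did so for 6, against 59.8%. All 4 knockout libraries lay below both controls for 3 genes (Cdc73, Leo1 and Tcea1), against 39.5%. Both KO1 libraries lay above both controls for 1 gene, Aff4, against 10.6%. Each of these shares is close to that over all genes.

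**Figure D1:**
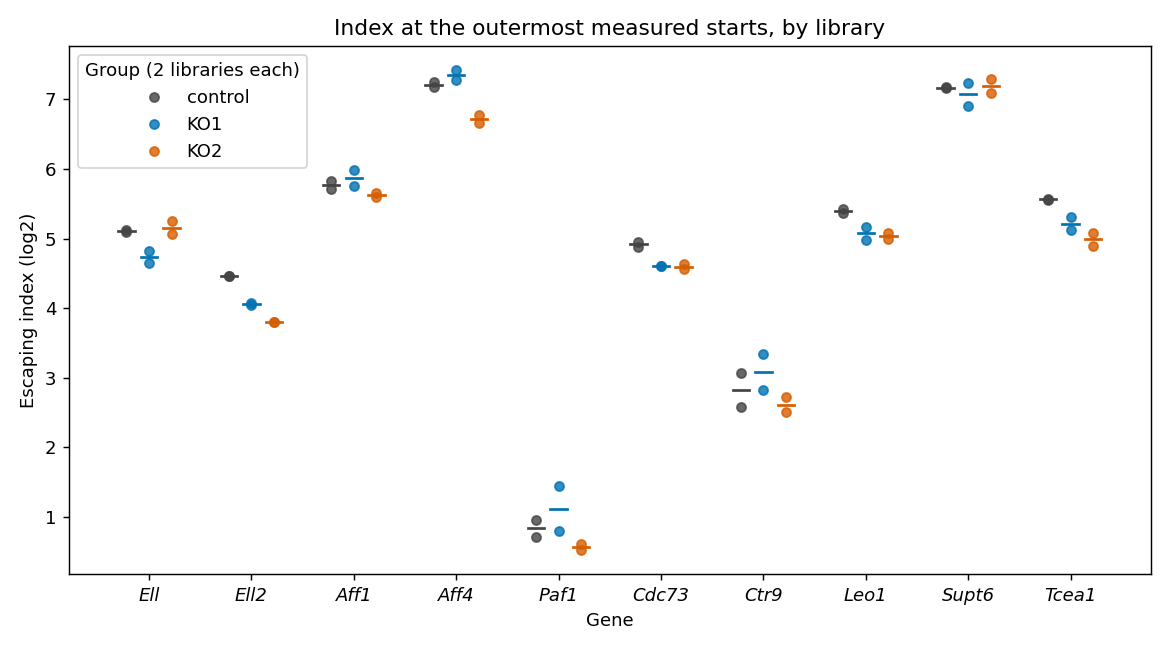
Escaping index (log2, vertical axis) at the outermost measured starts of the 10 genes, 1 point per library and a short line at each group's mean. Control, KO1 and KO2 do not overlap in Ell2, Aff4 and Tcea1, and group means lie within 1 log2 unit of each other in every gene. How often the groups separate in this way over all genes was not counted. At outer starts all 4 knockout libraries lay below both controls for 39.5% of all genes. For Ell2 the points are the mean of 5 models that start inside the gene; the other genes show their outer starts.

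Ell, at chr8:70539457-70592858 on the plus strand (ENSMUSG00000070002), was the first ELL factor described and raises the rate of elongation. Its outer-start index was 5.09 and 5.12 in control, 4.65 and 4.81 in KO1, and 5.06 and 5.25 in KO2. Both KO1 libraries lay below the controls, and KO2 overlapped them. The difference was -0.37 ± 0.16 (SE, n = 2 a group) in KO1 (adjusted p = 0.204) and 0.05 ± 0.16 in KO2 (adjusted p = 0.836), neither called. After every library was centred on its median the KO2 difference was 0.52. Of its 2 coding models, the one starting at the outermost end differed by 0.18 in KO2 and the one starting 231 bases inside by -0.08.

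Ell2, at chr13:75706757-75772364 on the plus strand (ENSMUSG00000001542), encodes the ELL factor best known for the switch to secreted antibody in plasma cells. All 8 of its measured models start inside the gene, and 3 of them were called. The coding model ENSMUST00000222194, which starts 833 bases inside, in the 5′ UTR of exon 1, had an index of 3.73 and 3.82 in control, 3.25 and 3.16 in KO1, and 2.47 and 2.54 in KO2. The 3 groups did not overlap, with KO2 lowest. It fell in KO2, with a difference of -1.27 ± 0.17 (SE; adjusted p = 0.0354), and in the average of both knockouts (-0.92, adjusted p = 0.0349). The KO1 difference of -0.57 was not called (adjusted p = 0.124).

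A second model, ENSMUST00000220572, marked for nonsense-mediated decay, starts 5 bases before the coding model. It had an index of 3.37 and 3.25 in control, 2.86 and 2.81 in KO1, and 2.098 and 2.231 in KO2, and fell by 1.14 in KO2 (adjusted p = 0.0358) and by 0.81 in the average (adjusted p = 0.0400). The order of the groups was the same. The 2 models start within 5 bases of each other and overlap along the gene, so they are not independent.

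The other 3 Ell2 models near the start begin 121 bases further on, 60 bases past the first base of the coding sequence and inside exon 1; 1 of them is tagged as having no established start. The coding part of that exon, chr13:75707651-75707797 (mm10, plus strand), is shown because the later models start within it; the earlier ones start 61 and 66 bases before it, in the 5′ UTR. Capitals mark the bases that belong to the later-starting models as well, and lower case those that only an earlier start includes.

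Ell2 exon 1, coding part: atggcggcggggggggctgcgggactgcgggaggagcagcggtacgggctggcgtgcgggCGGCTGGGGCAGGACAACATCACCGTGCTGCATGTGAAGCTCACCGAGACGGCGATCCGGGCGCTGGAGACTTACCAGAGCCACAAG

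In control libraries these 3 models had means between 4.85 and 5.26, and none was called. Their KO2 differences were -0.25, -0.34 and -0.29, against -1.14 and -1.27 for the 2 models starting up to 126 bases earlier. After every library was centred on its median the 3 later-starting models differed by -0.01 to 0.08 in KO2, and the earlier-starting ones by -0.81 and -0.94, not called (adjusted p = 0.0975 and 0.0919). The gaps between the KO2 differences of the earlier and later models ran from 0.80 to 1.02. Over all 15322 pairs of models of 1 gene that start 100 to 300 bases apart, the median gap in KO2 was 0.39 and the 90th percentile 1.06. In KO1 the gaps in Ell2 were 0.15 to 0.26, where the median pair had 0.35. The Ell2 gaps in KO2 were thus over the median pair and below the 90th percentile, and those in KO1 were under the median pair.

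The third called model of Ell2, the retained-intron model ENSMUST00000222564, starts in an intron 48479 bases inside the gene. Its index was 5.09 and 4.70 in control, 3.05 and 3.27 in KO1, and 3.84 and 3.64 in KO2. Here KO1 was the lower of the knockouts, and no knockout library reached a control. It fell by 1.16 in KO2 (adjusted p = 0.0378) and by 1.45 in the average (adjusted p = 0.0341), and the larger KO1 difference of -1.74 missed the threshold (adjusted p = 0.0713). The coding model starting 39594 bases inside had the opposite sign, 0.39 in KO1 and 0.53 in KO2, not called.

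Over the 5 models nearest to the outer end, the mean Ell2 index was 4.47 and 4.46 in control, 4.05 and 4.07 in KO1, and 3.80 and 3.80 in KO2, with no overlap between groups. In a fit that takes each gene's outermost measured starts, Ell2 was the 1 of 10 members called in KO2 (-0.66 ± 0.14, adjusted p = 0.0407), where 16.8% of all 17349 genes were called. It was also the 1 called in the average (-0.53, adjusted p = 0.0484), against 14% of genes. This fit was chosen after the values were seen, and both shares of members lie under those of all genes. With median centring the KO2 difference was -0.19 (adjusted p = 0.475). Over all 8 internal models the differences were -0.43 in KO1 and -0.42 in KO2, not called (adjusted p = 0.294 and 0.237). An antisense gene, 1700037F03Rik, overlaps Ell2, and whether the counting used strand is not given in the sources used here.

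Among single transcripts, 4 of the 54 passed in KO2 (7.41%, against 9.79% of all 66944) and 3 in the average (5.56%, against 8.49%). They were the 3 of Ell2 and, in KO2, the main coding model of Cdc73. All 4 were lower in the knockouts. When transcripts with a ratio of 1 or less in any library were left out, 5 of 44 passed in KO2, against 12.6% of all, and the added one, ENSMUST00000132910 of Paf1, was higher in KO2 (1.10, adjusted p = 0.0444). In the main fits, leaving out any 1 of the 6 libraries, or centring the libraries, ended these 4 calls. It also ended every call at outer starts over all genes and partners in those fits. Apart from the outermost measured starts of Ell2, fits with other settings were not repeated in this way.

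**Figure D2:**
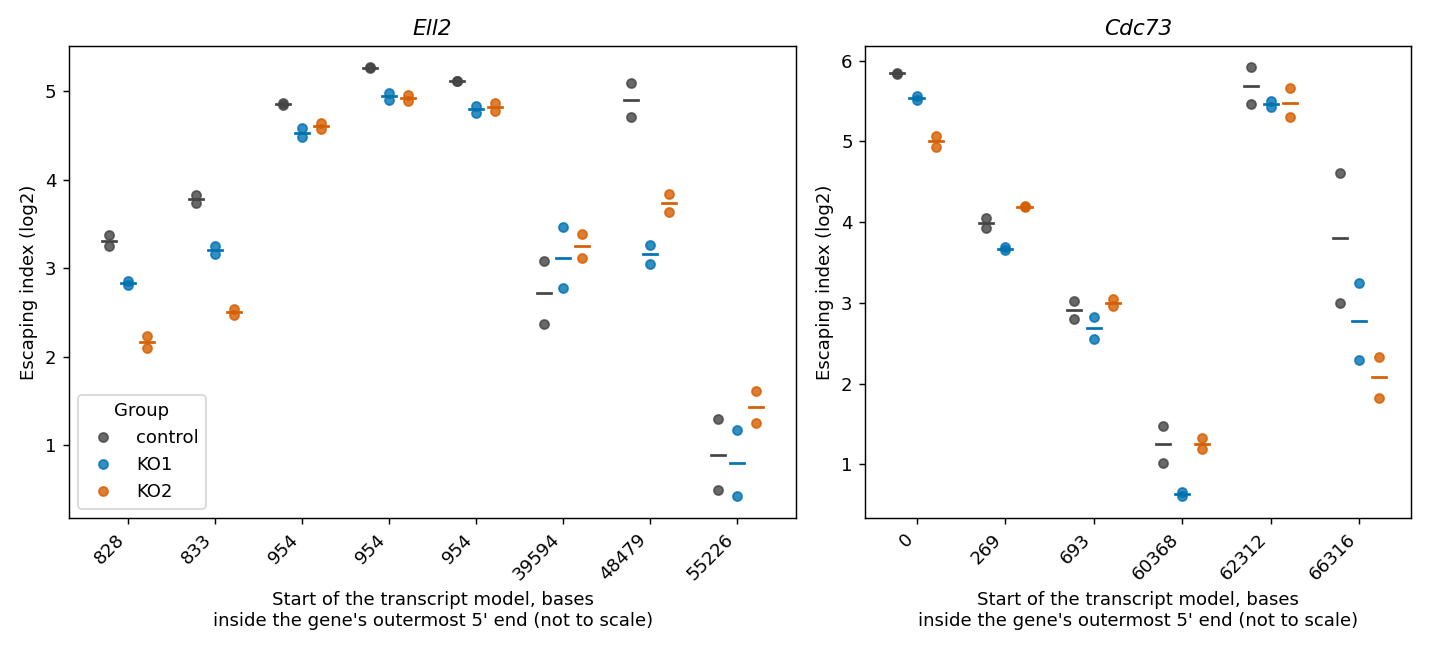
Escaping index (log2, vertical axis) of each measured model of Ell2 and Cdc73, ordered by where it starts (bases inside the gene's outermost 5′ end, evenly spaced and not to scale), 1 point per library with group means as lines. In Ell2 the KO2 points lie far under the controls at 828 and 833 and close under them at 954; in Cdc73 they lie under them at 0 and above them at 269.

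Aff1, at chr5:103692374-103855322 on the plus strand (ENSMUSG00000029313), is a scaffold of the super elongation complex and a frequent partner of MLL in leukaemia. Its outermost model is a retained-intron transcript, with an index of 5.72 and 5.83 in control, 5.99 and 5.76 in KO1, and 5.65 and 5.60 in KO2. The differences were 0.10 and -0.15, not called (adjusted p = 0.731 and 0.535). Its RefSeq starts lie 61788 and 62199 bases inside, so for Aff1 the models classed as internal include those at its RefSeq promoters. These 2 coding models differed by -0.04 and -0.09 in KO1 and by -0.22 and -0.08 in KO2. Both KO2 libraries lay below the controls at the outer start of Aff1, and its internal mean overlapped them in both knockouts.

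Aff4, at chr11:53350833-53421830 on the plus strand (ENSMUSG00000049470), is a central scaffold of the super elongation complex. The index at its outer start, from 1 coding model, was 7.25 and 7.18 in control, 7.28 and 7.42 in KO1, and 6.78 and 6.66 in KO2. KO1 lay above and KO2 below the controls, and such opposite sides were found for 1 of the 9 members and 3.49% of all genes. The differences were 0.14 ± 0.17 in KO1 (adjusted p = 0.623) and -0.49 ± 0.17 in KO2 (adjusted p = 0.0952), and that between the knockouts was 0.63 (adjusted p = 0.184), none called. The KO2 difference equals the shift of the median gene to within 0.02.

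The 7 internal models of Aff4 averaged 2.20 and 2.17 in control, 2.31 and 2.27 in KO1, and 2.42 and 2.51 in KO2. All 4 knockout libraries were above the controls, by 0.10 in KO1 and 0.28 in KO2, not called (adjusted p = 0.768 and 0.391). The highest KO2 difference in Aff4 was 0.81 ± 0.24, for a processed transcript that starts in coding exon 3 (adjusted p = 0.0804). Outer and internal starts of Aff4 thus had opposite signs in KO2, and the test of outer minus internal within each library gave -0.77 ± 0.22 (adjusted p = 0.0940). The median of all genes for that quantity in KO2 was -0.49. With every library centred on its median of that quantity, Aff4 stood at -0.29 in KO2.

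Of the PAF1 complex, Cdc73 and Leo1 lay below the controls in all 4 knockout libraries at their outer starts, and Paf1 and Ctr9 did not. Cdc73 (parafibromin, a tumour suppressor of the parathyroid) lies at chr1:143598800-143702893 on the minus strand (ENSMUSG00000026361). Its outer-start index was 4.88 and 4.95 in control, 4.61 and 4.60 in KO1, and 4.63 and 4.56 in KO2. The differences were -0.31 ± 0.14 and -0.32 ± 0.14, not called (adjusted p = 0.231 and 0.162; 0.131 in the average). They are close to the median gene in KO1, and after every library was centred on its median the KO2 difference was 0.15.

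That mean covers 2 models that differed in KO2. The main coding model ENSMUST00000018337, which starts at the outermost end, had an index of 5.84 and 5.85 in control, 5.57 and 5.52 in KO1, and 5.07 and 4.93 in KO2. The groups did not overlap, and it fell in KO2 by 0.84 (adjusted p = 0.0399), with -0.51 and no call after median centring (adjusted p = 0.145), while KO1 at -0.30 was not called (adjusted p = 0.312). ENSMUST00000212510, a processed transcript that starts 269 bases inside at the first coding base, had 3.93 and 4.05 in control, 3.65 and 3.69 in KO1, and 4.20 and 4.18 in KO2. Here KO2 was above the controls, by 0.20 (adjusted p = 0.444), and by 0.53 after median centring (adjusted p = 0.138). The gap between the 2 models' KO2 differences was 1.04, near the 90th percentile of such pairs, and the gap in KO1 was 0.02. The protein-coding gene B3galt2 and the processed pseudogene Gm6397 overlap Cdc73 on the other strand.

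Leo1, which pairs with Paf1 within the complex, lies at chr9:75441524-75466432 on the plus strand (ENSMUSG00000042487). Its outer-start index was 5.37 and 5.42 in control, 4.98 and 5.17 in KO1, and 5.08 and 5.00 in KO2. The differences were -0.32 and -0.36, not called (adjusted p = 0.244 and 0.151), and again close to the median gene. Its 2 outer models start 12 bases apart and had nearly the same values. The single internal model, a retained intron starting 7556 bases inside, had another order of the groups, at 2.96 and 3.07 in control, 3.63 and 3.77 in KO1, and 2.79 and 2.56 in KO2. KO1 was above and KO2 below the controls, a difference of 1.03 ± 0.16 between the knockouts (adjusted p = 0.228). At internal starts such opposite sides were found for 1 of 8 members and 3.47% of all genes.

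The sequences upstream of the RefSeq starts of Cdc73, Leo1 and Aff4 are given because, of the genes with a window, these lie wholly before the GENCODE gene, and they show what the start regions of these factors look like. Each is the 250 bases before the start, from RefSeq on GRCm38.p6, 5′ to 3′ on the gene's strand. Capitals mark the GC box, searched as GGGCGG on both strands. Windows were given for 8 of the 10 genes.

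Cdc73, chr1:143702894-143703143, minus strand: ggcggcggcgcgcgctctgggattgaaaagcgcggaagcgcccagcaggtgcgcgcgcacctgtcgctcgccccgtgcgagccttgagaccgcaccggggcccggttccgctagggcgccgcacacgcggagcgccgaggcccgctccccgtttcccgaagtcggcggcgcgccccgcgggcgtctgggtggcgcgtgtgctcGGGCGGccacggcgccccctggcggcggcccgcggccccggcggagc

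Leo1, chr9:75441274-75441523, plus strand: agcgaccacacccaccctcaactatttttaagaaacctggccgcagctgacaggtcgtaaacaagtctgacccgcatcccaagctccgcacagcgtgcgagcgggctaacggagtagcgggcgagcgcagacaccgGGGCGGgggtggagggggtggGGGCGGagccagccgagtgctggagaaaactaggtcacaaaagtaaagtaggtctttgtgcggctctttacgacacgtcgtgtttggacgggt

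Aff4, chr11:53350517-53350766, plus strand: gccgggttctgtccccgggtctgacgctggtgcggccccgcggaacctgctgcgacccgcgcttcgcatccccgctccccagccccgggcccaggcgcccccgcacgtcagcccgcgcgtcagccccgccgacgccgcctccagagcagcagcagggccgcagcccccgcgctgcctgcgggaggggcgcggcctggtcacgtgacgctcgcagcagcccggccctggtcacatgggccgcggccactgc

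The window of Cdc73 held 1 GC box, that of Leo1 2 and that of Aff4 none. Among the other windows, Ell held 3, Ell2 and Paf1 2 each, the 2 of Aff1 2 and 3, and Supt6 none. Neither the TATA box TATAAA nor CCAAT was found in the windows of Cdc73, Leo1 and Aff4 on either strand. The windows of Ell2 and Paf1 held 3 CCAAT each. Of all 32851 RefSeq windows of that length, 32.7% held GGGCGG, 12.4% TATAAA and 33.8% CCAAT. G and C made up 80.4% of the Cdc73 window, 60.0% of Leo1 and 79.2% of Aff4, where the median window had 52.4%. These matches describe letters and not sites in use.

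Paf1, the subunit that names the complex, lies at chr7:28392951-28399388 on the plus strand (ENSMUSG00000003437). Its 4 outer models averaged 0.95 and 0.71 in control, 1.44 and 0.80 in KO1, and 0.52 and 0.60 in KO2. KO1 overlapped the controls and KO2 lay below them, with differences of 0.29 and -0.27, not called (adjusted p = 0.541 and 0.500). The main coding model alone was 1.32 and 1.39 in control, 1.89 and 1.77 in KO1, and 0.96 and 0.98 in KO2, a separation of all 3 groups in which KO1 was highest. Its difference between the knockouts was 0.86 ± 0.18 (adjusted p = 0.188). The highest single KO2 difference of any member was in Paf1, 1.10 ± 0.26 for a retained-intron model that starts 507 bases inside (adjusted p = 0.0551).

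Ctr9, the scaffold of the PAF1 complex, lies at chr7:111028951-111056377 on the plus strand (ENSMUSG00000005609). Its outer-start index was 2.58 and 3.07 in control, 3.33 and 2.83 in KO1, and 2.72 and 2.50 in KO2. The groups overlapped, and the control libraries differed from each other by more than the knockouts did from control (0.26 and -0.21, adjusted p = 0.573 and 0.597). Its internal models differed by -0.17 in KO1 and -0.18 in KO2, also not called.

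Supt6, at chr11:78206746-78245987 on the minus strand (ENSMUSG00000002052), had an outer-start index of 7.16 and 7.18 in control, 7.24 and 6.91 in KO1, and 7.10 and 7.29 in KO2. The groups overlapped and the differences were -0.09 and 0.02 (adjusted p = 0.787 and 0.943). After every library was centred on its median the KO2 difference was 0.49. Sdf2, on the other strand, overlaps it at its start, so reads of both may be mixed there if strand was not used.

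Tcea1, at chr1:4857814-4897909 on the plus strand (ENSMUSG00000033813), had the smallest p of the 9 genes in the average of both knockouts. Its outer-start index was 5.57 and 5.55 in control, 5.12 and 5.31 in KO1, and 5.08 and 4.90 in KO2. Every knockout library was under both controls. The differences were -0.35 ± 0.16 in KO1 (adjusted p = 0.235), -0.57 ± 0.16 in KO2 (adjusted p = 0.0642) and -0.46 in the average (adjusted p = 0.0792), none called. After every library was centred on its median the KO2 difference was -0.10. Its coding model at the outermost end differed by -0.32 in KO2 and the one starting 224 bases inside by -0.82 (adjusted p = 0.0937). Gm37988, annotated as a protein-coding gene on the same strand, overlaps Tcea1, and use of strand would not separate their reads where they overlap.

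The genes whose pattern over the 6 libraries, taken as differences from the control mean, lay nearest to that of Tcea1 were Adam9 (Euclidean distance 0.087), Gm10499 (0.104) and Amacr (0.112). Their KO2 differences were -0.54, -0.59 and -0.53, and none was called. They were picked by closeness over these same values, so their likeness to Tcea1 follows from the choice.

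**Figure D3:**
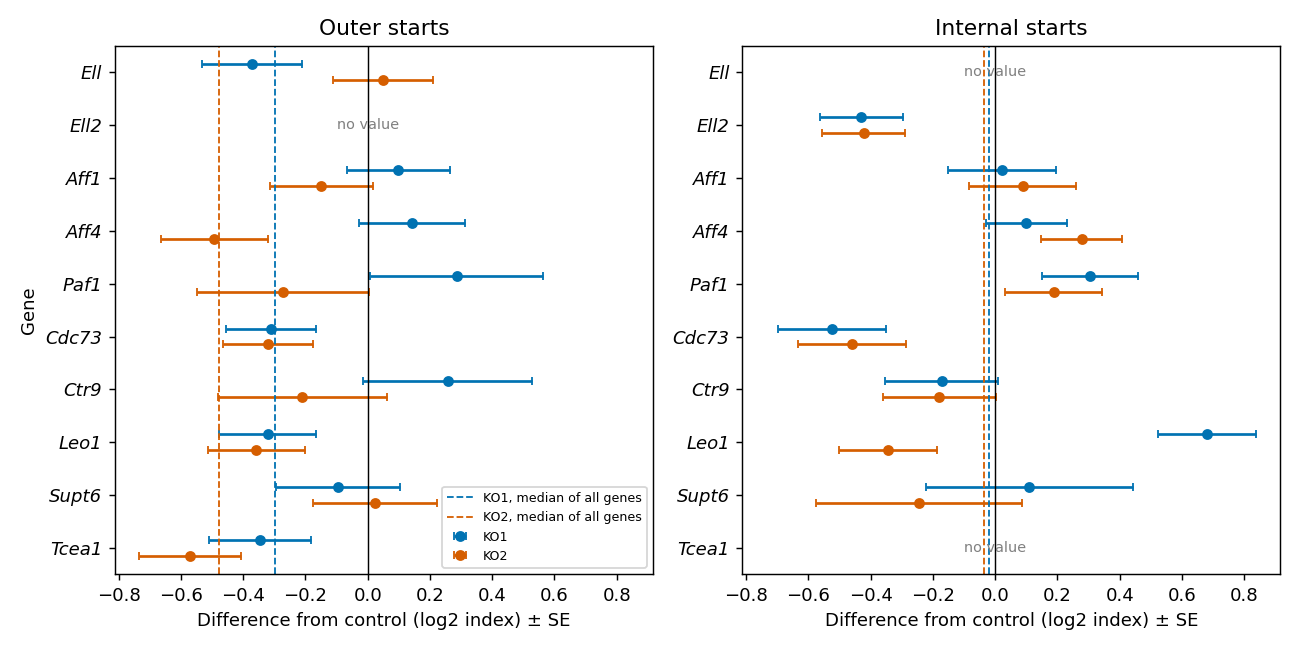
Difference of each knockout from control (log2 index, horizontal axis, ± SE) for the 9 genes with an outer-start value (left) and the 8 with an internal-start value (right); dashed lines are the medians of all genes. At outer starts the genes spread from -0.57 to 0.29 around medians of -0.30 and -0.48, and at internal starts from -0.53 to 0.68 around medians near 0.

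At internal starts no member and no other gene was called in KO1, KO2 or the average (0% in each; 1197, 1371 and 1370 of 8708 genes had an unadjusted p under 0.05, among them 3, 2 and 2 members). The median difference of the 8 genes in the average was -0.01, that of all genes -0.03. Ell2 and Cdc73 had the lowest values, Cdc73 with -0.53 in KO1 and -0.46 in KO2 (adjusted p = 0.305 and 0.295). Aff4 and Paf1 lay above the controls in all 4 knockout libraries, Paf1 by 0.31 and 0.19 (adjusted p = 0.452 and 0.623). Aff1, Ctr9 and Supt6 overlapped the controls in both knockouts. How often genes lie wholly above or below the controls at internal starts was not counted over all genes.

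Outer and internal starts could be compared within a library for 7 genes. The difference between them was called for 0 of 7 in the average of both knockouts, and for 0% of all 7315 genes with both (2205 had an unadjusted p under 0.05, 1 of them a member). Its median was -0.08 for the members and -0.42 for all genes. The test of KO1 against KO2 at outer starts likewise called no member and 0% of genes, with 2889 genes and 2 members at an unadjusted p under 0.05.

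**Figure D4:**
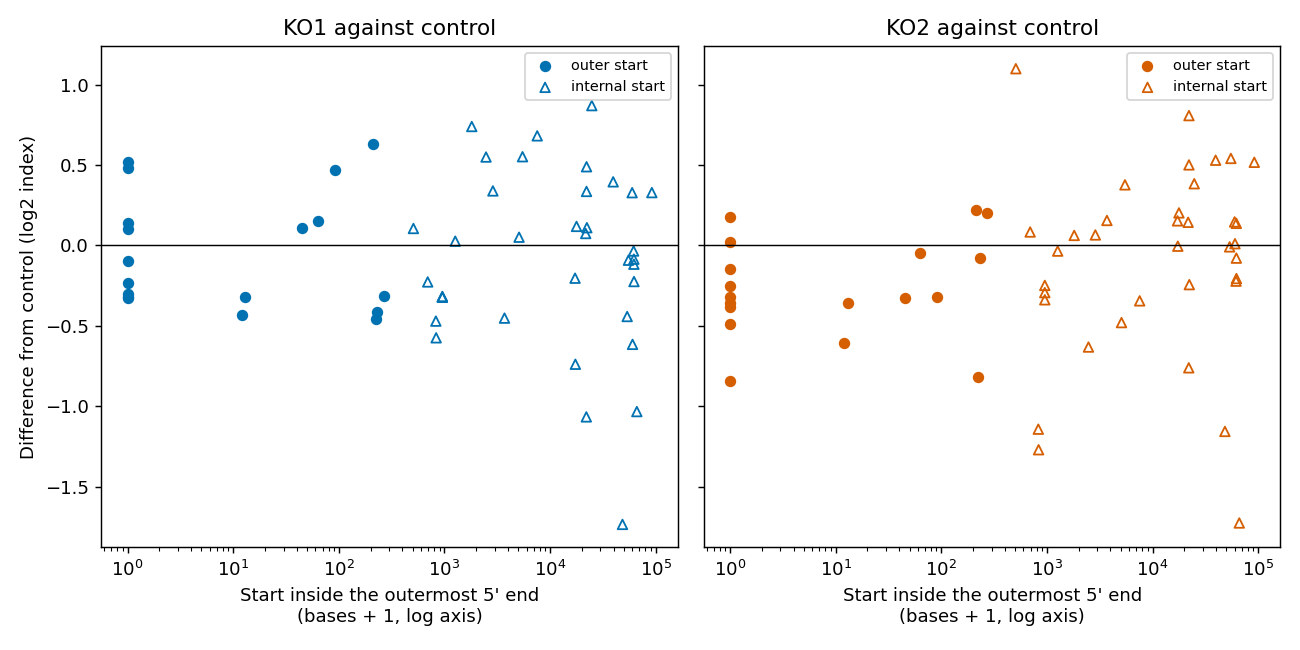
Difference from control (log2 index, vertical axis) of each of the 54 transcripts in KO1 and KO2 against where it starts (bases inside the outermost 5′ end plus 1, log axis); filled circles are outer starts and open triangles internal ones. Values lie between -1.74 and 1.10, and the widest spread is among internal starts.

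Beside the members, 32 partner genes in 4 lists were looked up, and 27 had an outer-start value. In KO2, 5 of 27 were called lower and none was called higher, near the 17.7% called over all genes. By sign alone 20 of the 27 had a KO2 difference under 0, against 80.9% of all genes, and the rest lay above it. In the average 2 of 27 were called lower, where 14.8% of all genes were called. In KO1, where 0% of all genes were called, none of the partners passed. Their median difference was -0.16 in KO1 and -0.34 in KO2, between the members and all genes. Of the super elongation complex list 5 of 10 genes had a value. Eaf2, an ELL-associated factor, fell in KO2 (-0.78, adjusted p = 0.0455), and Mllt3, the YEATS reader AF9, had -0.98 in KO1 and -0.36 in KO2, not called.

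Of the 10 genes around the PAF1 complex and SPT6, 2 were called lower in KO2 and 1 in the average. Over all genes 17.7% and 14.8% were called. Wdr61, a subunit of the PAF1 complex in animals, fell by 0.71 in the average (adjusted p = 0.0456). Ube2a, an E2 enzyme of H2B ubiquitination, fell by 0.91 in KO2 (adjusted p = 0.0385), and Supt4a, the small subunit of DSIF, by 0.83 (adjusted p = 0.0429). The other 7 genes had average differences from -0.46 to 0.23, not called.

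In the list of TFIIS and elongin genes none of 7 was called, with Polr2a, the largest subunit of RNA polymerase II, at -0.33 and Tcea3, a TFIIS paralogue, at 0.26 in the average. FACT is the chaperone that opens nucleosomes ahead of the polymerase. Of the 5 genes of FACT and of the late kinases, 2 were called lower in KO2, where 17.7% of all genes were called. Supt16 had an index of 7.36 and 7.58 in control, 6.71 and 6.57 in KO1, and 6.48 and 6.49 in KO2. No knockout library reached a control, with differences of -0.99 in KO2 (adjusted p = 0.0307) and -0.91 in the average (adjusted p = 0.0304). Ssrp1, the other FACT subunit, fell by 0.63 in KO2 (adjusted p = 0.0494), just under the threshold. It was not called with the outermost measured start (adjusted p = 0.0512), the longest transcript (0.0508), 0.5 added to the linear value (0.0529), no variance trend (0.0570) or the mean over all transcripts (0.357). The other 3 genes of the list were not called.

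**Figure D5:**
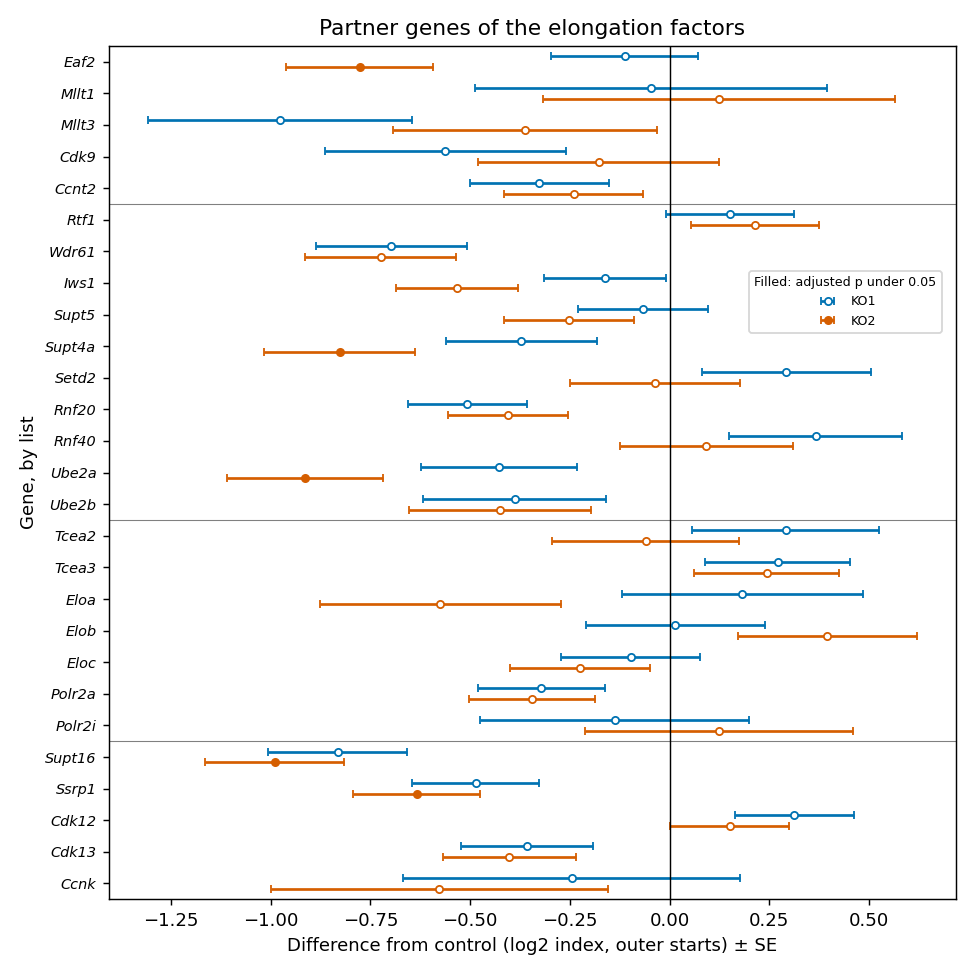
Difference from control (log2 index at outer starts, horizontal axis, ± SE) of 27 partner genes in KO1 and KO2, with lines between the 4 lists; filled points passed the adjusted p. The 5 filled points are all KO2 and all below 0.

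Since m6A is written most often in GGACT, this motif was counted in the longest coding transcript of each member, spliced and on its own strand. Ell had 1.95 sites per kb, Supt6 1.70, Aff1 1.44 and Aff4 1.19, and the other 6 genes had 0.50 to 0.92. The median of 12088 coding genes was 1.05, with quartiles of 0.63 and 1.52. The motif says nothing of whether a site carries m6A in these cells.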

How the data were processed

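The 6 mNET-seq libraries were compared. Per the submitters' processing notes, the tools were CASAVA, Trimmomatic 0.38, HISAT2 2.1.0 and featureCounts on mm10. Index windows, settings and use of strand were not given in the sources used here. Values deposited by the authors are log2, by their range the logarithm of a ratio to which a small offset was added, and were tested without rescaling between libraries.

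Identifiers were matched without version to GENCODE M21 (68397 of 68473). Models of 1 gene that were identical in all libraries counted once, and the rest were averaged per gene and start class. Limma 3.58.1 in R 4.3.3 fitted 3 groups together over all features (variance trend, two-sided), separately for outer starts, internal starts, their difference and single transcripts. The Benjamini-Hochberg adjusted p threshold was 0.05. The procedure was tested on simulated data. Tables and figures were made with Python 3.11.15, pandas 2.3.3, numpy 2.4.6 and matplotlib 3.10.9.

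All members are named, with the 2 partners of each list of smallest p in the average contrast, and partners that were called. Members, lists and settings were chosen with earlier results of these data known; the fit of Ell2's outermost measured starts and the comparison of neighbouring starts were chosen after their values were seen. Other scalings, start windows, transcript classes, filters, groupings and each library left out were tried as alternatives.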

Additional observations from a re-analysis of the deposited data

Results flagged for a closer look

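In 7 values every library of one knockout lay on one side of both controls and every library of the other knockout on the opposite side. Among transcripts it held for 5 of 54 members (9.26%), some of them of 1 gene, and for 3.8% of all 66944; at outer starts for 1 of 9, against 3.49%, and at internal starts for 1 of 8, against 3.47%. At outer starts this was Aff4, with KO1 0.63 above KO2, which rests on its single outer model ENSMUST00000060945 (0.63, adjusted p = 0.216 among transcripts). In Paf1 it was the main coding model ENSMUST00000003529 (KO1 minus KO2 0.86, adjusted p = 0.188) and the retained-intron model ENSMUST00000122857 (0.78, adjusted p = 0.195), which start 90 bases apart. The Cdc73 model ENSMUST00000212510 had the opposite order, with KO1 below and KO2 above control (-0.52, adjusted p = 0.235). Leo1 had it at its internal start, which is the model ENSMUST00000213248 alone (1.03, adjusted p = 0.188 among transcripts and 0.228 among genes). The difference between the knockouts was tested with limma and was not called for any of these.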

How the results depend on the processing

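Of 1204 member differences recomputed, at outer and internal starts, 1105 kept their direction and 99 changed sign. Of these, 32 changed under median centring or quantile normalization, and none that changed sign was called. The replicate block, no variance trend and only the 2 groups compared alter the spread and leave the difference unchanged. Direction was fixed in advance there, and where the library left out was of a group not compared. The count kept includes these. At outer starts the number of members called in KO2 went from 0 to 1 of 9 with starts within 50 bases (Cdc73; 19.5% of all genes), to 1 of 10 within 2000 bases (16.3%) or at the outermost measured start (16.8%; Ell2 in both), and to 2 with protein-coding models alone (Cdc73 and Tcea1 of 8; 30.8%) or the longest transcript (Ell2 and Cdc73 of 10; 17.7%). In the average it was 1 (Cdc73) within 50 bases (16.5% of all genes) or with protein-coding models (27.8%), 1 (Ell2) within 2000 bases (13.8%) or at the outermost measured start (14%), and 2 with the longest transcript (15.1%). The 4 of 54 transcripts called in KO2 became 5 of 44 with no ratio of 1 or less (12.6% of all transcripts). They became 2 of 19 with protein-coding models alone (19.5%). They became 0 with median centring, quantile normalization, only the 2 groups compared or the replicate block. The 3 in the average became 1 of 54 with both knockouts as 1 group (3.7%). They became 0 with centring, quantile normalization or the block. The 5 of 27 partners called in KO2 became 8 of 27 with protein-coding models (30.8% of all genes). With the mean over all transcripts of a gene they became 1 of 31 (7.06%). They became 0 with centring, quantile normalization, only the 2 groups compared or the block. The 2 of 27 partners called in the average became 5 of 24 within 50 bases (16.5% of all genes). They became 5 of 27 with protein-coding models (27.8%). They became 4 of 29 within 2000 bases (13.8%), 4 of 31 with the longest transcript (15.1%) and 4 of 26 with no ratio of 1 or less (18.6%). They became 1 of 31 with the mean over all transcripts (5.98%). They became 1 of 27 with both knockouts as 1 group (6.62%) or no variance trend (13.9%). They became 0 with centring, quantile normalization or the block. In KO1, 1 partner (Supt16) was called with protein-coding models, as were 973 of 11701 genes (8.32%). Leaving out each library in turn from the main fits ended every call at outer starts and among transcripts, in fits with fewer samples. The 2830 genes called in KO2 became 0 with centring, 3607 with protein-coding models and 1225 with the mean over all transcripts.

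Across outer-start genes, the deviations of same-numbered libraries from their group means correlated at -0.02, -0.001 and 0.03. No effect shared by number was seen. The labels do not say whether same-numbered libraries shared a culture or a day, and these correlations cannot show that they did not. In the main fits the block ended every call at outer starts and among transcripts, and it was not applied to the other settings, apart from the outermost measured starts of Ell2. Added after seeing the data, the Ell2 mean of the outermost measured starts in KO2 (-0.66) was -0.19 with centring and -0.18 with quantile normalization, and its adjusted p was 0.0699 with the replicate block and 0.0727 to 0.148 without 1 library. The cause of these changes was not tested. Depth is unknown, so the limit it sets cannot be given.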
